A study of Mus musculus with 53 samples.

Results

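The tumours described here arose in Cdkn2a knockout mice in which retroviral insertional mutagenesis had been applied. They gave 9 of the 53 arrays in the series, chosen by their genotype label, and each array measured total RNA of T-cell lymphoblasts from a tumour of a C57BL/6 mouse. They were set against 29 arrays from 11 other lymphoma-prone backgrounds: beta-catenin, LMO1, Nup98HoxD13, ThPOK, olig1-LMO1 double and Tal1-LMO2 double transgenic mice and mice labelled Ikaros plastic (3 arrays each), and E2A knockout, rag E2A knockout, Pokemon and Tal1 transgenic mice (2 each). All 38 arrays carry the label TLX1 negative. The labels give neither age, promoter nor Cre for any background, and nothing says that the tumours of a background came from separate animals, and the p-values reflect the spread among these samples alone. The olig1-LMO1 arrays are titled with olig2. The titles of the Cdkn2a knockout tumours hold gene names, which serve here as tumour names: myc_I, myc_pure_II, myc_mix_I, ras_I, mycras_mix_II, mycras_mix_III, myb_I, myb_II and pim1_ccnd3. The labels do not say how those genes were assigned. The other 15 arrays, whose genotype names TLX1 or p53, were outside the comparison, and normal thymus was not analysed here.

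Cdkn2a encodes both INK4A, which holds the cyclin D kinases in check and keeps the retinoblastoma protein active, and ARF, which restrains MDM2 and so protects p53. In insertional mutagenesis a retrovirus lands near genes throughout the genome, and a tumour grows from a cell in which an insertion has activated a growth-promoting gene, with Myc, Pim1, Myb and the D-type cyclins among the usual targets in mouse T cells. Early thymocytes depend on Notch receptors: cleaved Notch enters the nucleus, binds RBPJ and switches on Hes1, Dtx1, Il2ra and Ptcra, and activated Notch1 is a common driver of T-cell leukaemia.

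Values are log2 intensities, and a difference is the mean of the 9 Cdkn2a knockout arrays minus the mean of the 11 background means, tested with limma over 12393 genes. Array medians were 495.5 to 589.6 in Cdkn2a knockout and 441.3 to 566.2 (linear intensity) in reference arrays, and the mean array median was 8.94 in log2. The number of arrays limits the precision. The median difference over all genes was 0.08, and -0.05 after subtracting each array's own median, a shift of 0.14, so small differences are not read below. Beta-actin signal at the 3' end over that at the 5' end, in log2, was 0.06 to 0.43 in Cdkn2a knockout and 0.04 to 1.08 in reference arrays. The BioB spike-in control was 8.19 to 9.31 in Cdkn2a knockout and 7.68 to 11.57 in reference arrays, and all arrays of the E2A, rag E2A, Tal1, Tal1-LMO2 and ThPOK backgrounds lay above the Cdkn2a knockout range. The part of these measures in the results was not tested.

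The library pim1_ccnd3 stood apart. Its correlation with the other Cdkn2a knockout arrays was 0.883 to 0.932 over all probe sets, against 0.948 to 0.988 among the other 8. Secretory genes typical of salivary glands, a list chosen after the values were seen, were among its brightest. Amy1, which encodes salivary amylase, was 13.17 on this array and 6.85 to 7.37 on the other 8, and Smr3a, a submaxillary gland gene, was 12.85 and 7.44 to 7.68. Bpifa2, Car6, Mucl1, Mucl2, Scgb1b27 and Scgb2b27 lay between 13.71 and 14.30 on it. Lower levels stood in myc_I, with 11.49 for Mucl2, 9.41 for Mucl1, 9.18 for Car6 and 8.94 for Scgb2b27. All 3 Ikaros plastic arrays of the reference also held Mucl2, at 10.95, 14.49 and 12.61, and the second of them reached 14.10 for Bpifa2. On pim1_ccnd3 the T-cell genes Cd3e (12.49), Cd3d (13.02) and Cd3g (12.52) were the highest of the 9. In contrast, Bcl11b (10.12), Cd8a (8.73), Cd8b1 (9.19) and Rag1 (8.14) were the lowest of the 9. Thy1 was also lowest at 12.38, next to 12.39 in mycras_mix_II. Without this array 4632 genes were higher (37.4%) and 2035 lower (16.4%), and several results below are also given without it. With bulk tumours, fewer cells of a type and less RNA per cell cannot be told apart.

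As a check of the labelled cell type, all 9 tumours had Cd3e, which encodes a chain of the T-cell receptor complex, at 11.53 to 12.49, and Thy1, a thymocyte surface glycoprotein, at 12.38 to 13.00. Ctse, the gene that marks this comparison, encodes cathepsin E, an aspartic protease of endosomes. It was 13.74 in myc_I, 14.20 in ras_I, 13.75 in mycras_mix_II, 13.95 in myc_pure_II, 13.76 in mycras_mix_III, 13.74 in myb_II, 14.04 in myc_mix_I, 13.95 in pim1_ccnd3 and 14.18 in myb_I, against a lowest, median and highest of 9.30, 11.78 and 12.84 over the 29 reference arrays. Every Cdkn2a knockout array lay above every reference array. The mean was 13.92 ± 0.19 (SD, n = 9) in Cdkn2a knockout tumours and 11.62 ± 0.60 over the 11 reference means (SD), a difference of 2.30 ± 0.21 (SE), given as a description because Ctse was chosen with this result known. Its other probe set gave 2.11.

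**Figure D1:**
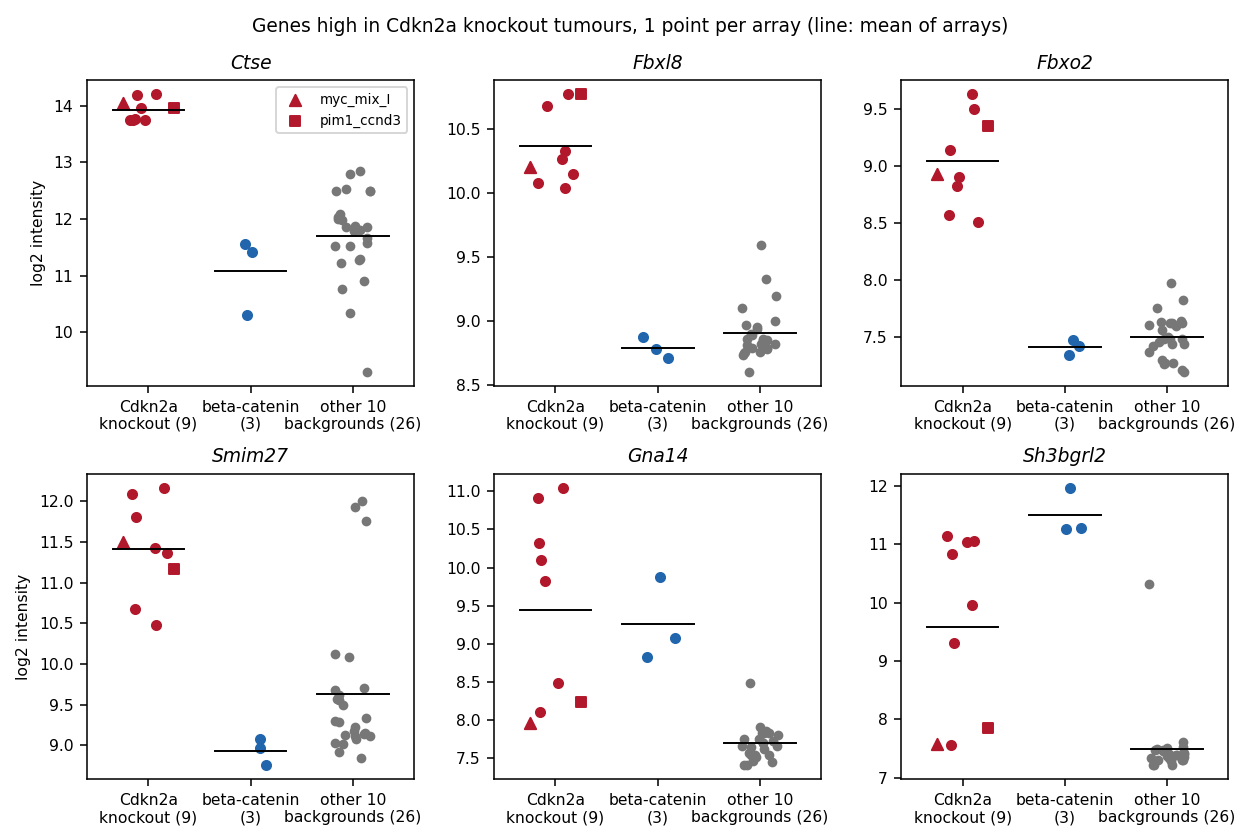
Log2 intensity of 6 genes high in Cdkn2a knockout tumours, 1 point per array, with the 9 Cdkn2a knockout arrays left, the 3 beta-catenin arrays in the middle and the 26 arrays of the other 10 backgrounds right; lines are means over arrays. Ctse, Fbxl8 and Fbxo2 separate all Cdkn2a knockout arrays from all reference arrays, whereas Gna14 and Sh3bgrl2 are also high in beta-catenin tumours and low in myc_mix_I, pim1_ccnd3 and myb_I.

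Over all genes 4825 (38.9%) were higher and 2117 (17.1%) lower in Cdkn2a knockout tumours at an adjusted p under 0.05, 56% in either direction. Called genes whose mean lay above all 11 reference means made up 5.44%, and those below all 11 made up 4.74%. After centring of the arrays on their medians the split turned to 2891 higher (23.3%) and 4048 lower (32.7%), and after quantile normalization it was 3568 (28.8%) and 2500 (20.2%), so the balance of directions rests on the scaling. Only 55 genes (0.444%) were higher and 81 (0.654%) lower by 2-fold or more. The test takes its spread from arrays within backgrounds. With background as a random block (correlation 0.525), 2 genes (0.0161%), Fbxl8 and Fbxo2, passed, 1154 had an unadjusted p under 0.05, and the other 145 genes examined singly had adjusted p between 0.0858 and 0.997. Calls below therefore speak of these 12 sets of arrays and not of backgrounds at large. Against the 6 backgrounds with like spike-in signal, a reference chosen after the data were seen, 4473 genes were higher (36.1%) and 1556 lower (12.6%).

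Set against each background singly, with the same 9 arrays in all 11 contrasts, Cdkn2a knockout tumours were most like beta-catenin tumours. There 384 genes were higher and 552 lower in Cdkn2a knockout tumours (7.55% of genes in either direction), and the mean profiles correlated at 0.9705 across genes, which are not independent. Against Ikaros plastic tumours 957 were higher and 853 lower (14.6%). At the other end, 4735 were higher and 1680 lower against LMO1 transgenic tumours (51.8%). In between, the share called in either direction was 23.4% against ThPOK, 32.2% against Tal1, 35.4% against E2A knockout, 36.2% against Pokemon, 38.2% against Nup98HoxD13, 42.2% against rag E2A knockout, 45.8% against Tal1-LMO2 and 49.1% against olig1-LMO1 tumours. By correlation of mean profiles, Nup98HoxD13 (0.9617) and ThPOK (0.9577) came next after beta-catenin, ahead of Ikaros plastic (0.953). The order after beta-catenin thus depended on the measure. Genes higher than in at least 8 of the 11 backgrounds were 13.4% of all and genes lower than in at least 8 were 2.4%. Genes higher than in all 11 were 0.129% and genes lower than in all 11 were 0.0403%. Backgrounds with 2 arrays give fewer calls at the same difference. The backgrounds with the fewest calls also had array medians within the Cdkn2a knockout range of 495.5 to 589.6. These medians were 530.7 to 548.4 in beta-catenin, 517.3 to 566.2 in Ikaros plastic and 507.1 to 525.4 in ThPOK arrays. All other reference arrays had medians of 441.3 to 483.5. The part of array level in the order of backgrounds was not tested.

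**Figure D2:**
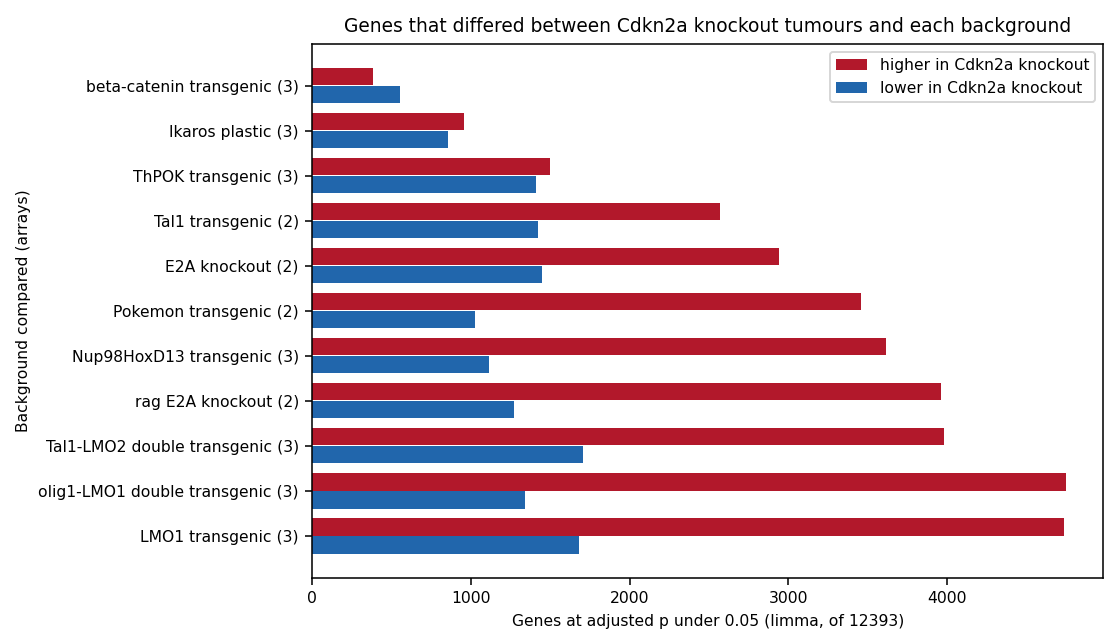
Number of genes higher (red) and lower (blue) in Cdkn2a knockout tumours at an adjusted p under 0.05 against each of 11 backgrounds, with the number of reference arrays in parentheses. The count is smallest against beta-catenin tumours and largest against LMO1 transgenic tumours.

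The targeted gene was examined first. Cdkn2a was 8.04 to 8.43 in the 9 knockout tumours, with a lowest, median and highest of 7.71, 8.07 and 9.23 in the reference arrays. The ranges overlapped, and the difference of 0.16 ± 0.11 (SE) did not pass (adjusted p = 0.207). Both groups lay near or below the array median, and where the probe set lies relative to the deleted part was not looked up here, so the value does not check the label.

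Of the genes the titles name, Myc and Pim1 were higher than the mean of the other backgrounds, though neither was called against beta-catenin tumours. Myc, the growth-promoting transcription factor, was 12.25 in myc_I, 12.23 in ras_I, 12.56 in mycras_mix_II, 12.19 in myc_pure_II, 12.49 in mycras_mix_III, 12.01 in myb_II, 12.07 in myc_mix_I, 11.77 in pim1_ccnd3 and 11.80 in myb_I. The reference arrays ran from 10.60 through a median of 11.36 to 12.09. The Cdkn2a knockout mean lay above all 11 reference means, with a difference of 0.85 ± 0.13 (adjusted p = 2.7e-06). Within the 9 tumours, the 5 with myc in the title averaged 12.31 ± 0.21 and the other 4 averaged 11.95 ± 0.21 (SD), a difference of 0.36 (two-sided exact permutation p = 0.0476, adjusted 0.0833 over 3 tests). Against beta-catenin tumours, which averaged 11.79, the difference was 0.36 (adjusted p = 0.339). High Myc was not limited to tumours titled with myc, as ras_I shows.

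Pim1 encodes a serine-threonine kinase that promotes survival together with MYC. It was 12.21 in pim1_ccnd3 and 10.08 to 10.83 in the other 8 tumours, with 9.01, 9.58 and 10.64 as the lowest, median and highest reference values. The title of the brightest tumour is the one that names the gene. The difference was 0.86 ± 0.15 (adjusted p = 1.31e-05) and 0.65 without pim1_ccnd3, while the other probe set gave -0.34. The Cdkn2a knockout mean of 10.53 lay beside 10.59 in beta-catenin tumours (-0.06, adjusted p = 0.917). Ccnd3, which encodes the cyclin D3 that drives thymocyte cycling, was named in the same title but was lowest in pim1_ccnd3 at 11.05 and highest in mycras_mix_III at 12.82 (difference -0.30 ± 0.18, adjusted p = 0.156).

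Myb, a transcription factor of immature lymphocytes, was highest in the 2 tumours titled with it, 13.18 in myb_I and 13.00 in myb_II, and 11.72 to 12.90 in the others. The means were 13.09 ± 0.13 and 12.49 ± 0.39 (SD), a difference of 0.60 whose two-sided exact permutation p of 0.0556 is the smallest that 2 against 7 can give (adjusted 0.0833). Against the other backgrounds Myb differed by -0.08 ± 0.14. Nras was 10.29 ± 0.18 in the 3 tumours with ras in the title and 10.23 ± 0.23 in the other 6 (exact permutation p = 0.81), and was lower than in the other backgrounds by -0.45 ± 0.11, although 1 of its other probe sets gave 0.36. Other Ras genes were not analysed here.

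Among 31 measured genes that are common retroviral insertion sites in mouse lymphoma, 12 were higher and 5 lower (38.7% and 16.1%, beside 38.9% and 17.1% of all genes), with a median difference of 0.01. These shares were close to those of all genes. Single members varied from tumour to tumour. Rras2, a Ras-related GTPase gene, was 12.64 in myc_I, 12.33 in ras_I, 12.87 in mycras_mix_III, 11.42 in myc_mix_I and 12.93 in myb_I, but 9.09 in mycras_mix_II, 9.55 in myc_pure_II, 9.31 in myb_II and 9.27 in pim1_ccnd3. The other backgrounds ran from 8.66 to 12.26 (difference 0.01 ± 0.38). Jdp2, an AP-1 family repressor, was 12.23 in mycras_mix_II and 12.46 in myb_I and 8.36 to 9.34 elsewhere among the 9. Ccnd2, the cyclin D2 gene, was 11.26 in pim1_ccnd3, 10.15 in mycras_mix_II and 9.01 to 9.27 in the rest. These 3 genes were singled out after their values were seen, and the labels do not place an insertion near any of them.

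**Figure D3:**
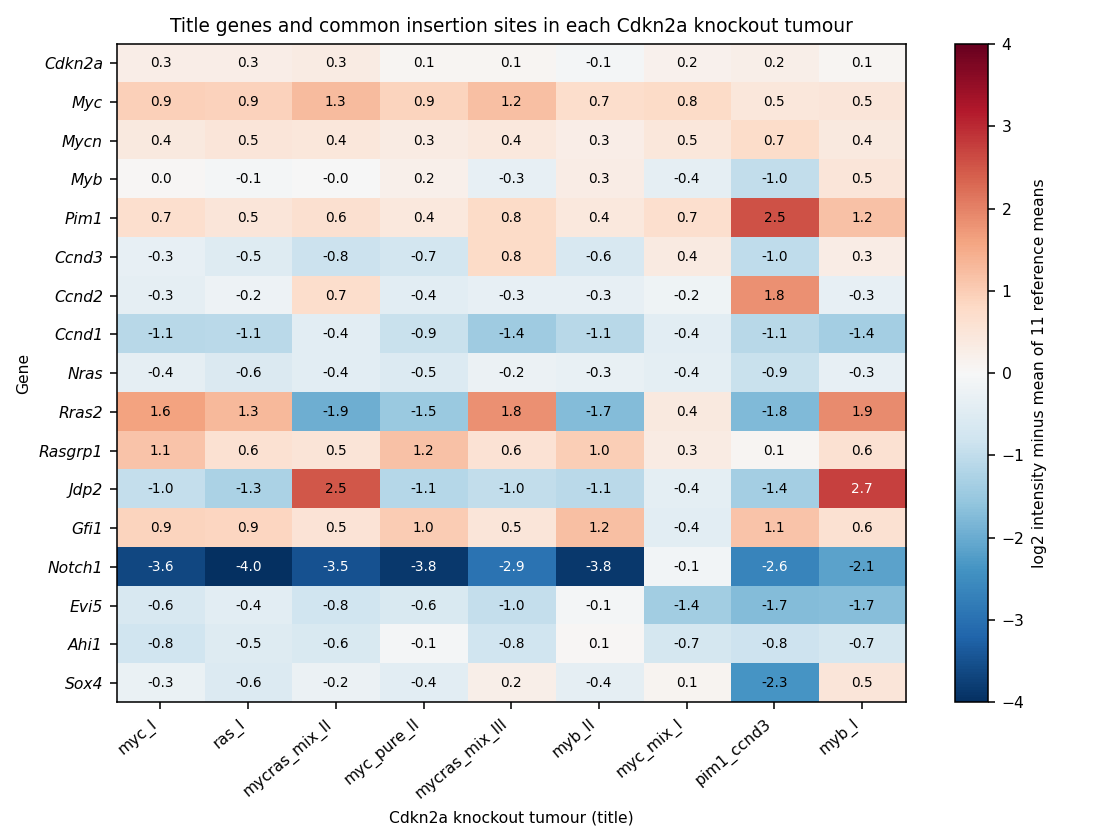
Log2 intensity of title genes and common insertion sites in each Cdkn2a knockout tumour minus the mean of the 11 reference means (red above, blue below; numbers are the differences). Myc is raised in all 9 tumours, Pim1 most in pim1_ccnd3, Jdp2 in mycras_mix_II and myb_I, and Rras2 lies above the reference mean in 5 tumours and below it in 4; Notch1 is low in 8 tumours and near the reference in myc_mix_I.

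Some insertion-site genes moved in most tumours alike. Gfi1, a zinc-finger repressor, was 9.97 in myc_mix_I and 10.87 to 11.59 in the other 8 (difference 0.71 ± 0.14, adjusted p = 9.27e-05). Rasgrp1, which loads Ras with GTP downstream of the T-cell receptor, was 9.79 to 10.87, with 8.55, 9.64 and 11.18 in the reference (0.67 ± 0.16, adjusted p = 0.00107, and 0.82 and 1.08 by its other probe sets). Neither was called against beta-catenin tumours, where Gfi1 averaged 11.59 and Rasgrp1 10.80, above the Cdkn2a knockout means of 11.09 and 10.37. Evi5, a regulator of mitotic exit and trafficking, was lower by -0.92 ± 0.15 and its mean lay below all 11 reference means. Mycn was 0.43 ± 0.05 higher, but its other probe sets gave 0.01 and -0.31. Sox4, a transcription factor of early lymphocytes, was 10.33 in pim1_ccnd3 and 12.12 to 13.15 elsewhere (difference -0.38, adjusted p = 0.0781). Its other probe sets gave -0.69 (adjusted p = 0.00175), -0.65 (adjusted p = 0.00235), -0.41 (adjusted p = 0.0212), -0.06 and 0.02.

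In the INK4, ARF and Rb pathway, 3 of 21 measured genes were higher and 4 lower (14.3% and 19%, beside 38.9% and 17.1% of all genes). With arrays centred 1 was higher and 7 lower (beside 23.3% and 32.7% of all genes), and without pim1_ccnd3 4 were higher and 3 lower. Ccnd1, the cyclin D1 gene, was 8.43 to 9.43 in Cdkn2a knockout tumours. The lowest, median and highest reference values were 7.90, 9.81 and 11.58 (difference -0.997 ± 0.22, adjusted p = 0.000305). Its mean of 8.86 was below all 11 reference means, but next to 8.87 in ThPOK and 8.97 in beta-catenin tumours. Cdkn2b, the neighbour of Cdkn2a that encodes INK4B, was 8.01 to 8.43 and 7.92 to 8.32 in the reference (0.02 ± 0.04, adjusted p = 0.685), but -0.12 (adjusted p = 0.0321) with arrays centred and -0.13 (adjusted p = 0.0147) after quantile normalization. Cdkn2c, which encodes INK4C, was 10.46 to 11.36 and 10.26 to 12.01 (-0.29 ± 0.12, adjusted p = 0.0475, and 0.107 after quantile normalization). The other kinase inhibitor genes went different ways. Cdkn1a, which encodes p21, was higher by 0.71 ± 0.17 (adjusted p = 0.000964), and Cdkn1b, which encodes p27, was lower by -0.55 ± 0.15 (adjusted p = 0.00308). Ccne1, the cyclin E1 gene, was 0.54 ± 0.16 higher. Beta-catenin tumours had 10.97 for Cdkn1a and 10.69 for Ccne1, above the Cdkn2a knockout means of 10.17 and 9.95, and neither difference was called.

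Among 19 measured p53 target genes, 7 were higher and 1 lower (36.8% and 5.26%, beside 38.9% and 17.1% of all genes), with a median of 0.16. With arrays centred 5 were higher and 3 lower, with a median of 0.02. Sesn2, a stress sensor that restrains mTORC1, was 9.03 to 9.98 in Cdkn2a knockout tumours and 8.36 to 9.30 in the reference arrays (0.60 ± 0.07, adjusted p = 2.99e-08, and 0.40 against the backgrounds with like spike-in signal). Bbc3, which encodes the death effector PUMA, was 0.59 ± 0.07 higher and Plk2, a stress-induced kinase gene, was 0.55 ± 0.06 higher. The Bbc3 mean of 10.30 lay above 10 reference means but below 10.37 in ThPOK tumours. The Plk2 mean of 9.56 lay above 9 reference means but below 9.81 in Ikaros plastic and 9.64 in beta-catenin tumours. In single contrasts 0 of the 19 genes were called against beta-catenin tumours (median -0.03), and 2 to 7 were higher than in each other background. Mdm2, the target that ARF restrains at the protein level, differed by -0.12 and did not pass.

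The largest differences on the low side were in the Notch pathway. Of 13 measured receptors and targets, 7 were lower and 3 higher (53.8% and 23.1%, beside 17.1% and 38.9% of all genes), with a median difference of -0.84 against 0.08 over all genes. The same 7 and 3 were counted after quantile normalization, and 7 and 2 with arrays centred. Without pim1_ccnd3 the counts were 7 lower and 4 higher.

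Notch1, the main receptor in early thymocytes, was 8.58 in myc_I, 8.25 in ras_I, 8.74 in mycras_mix_II, 8.37 in myc_pure_II, 9.27 in mycras_mix_III, 8.37 in myb_II, 12.11 in myc_mix_I, 9.57 in pim1_ccnd3 and 10.08 in myb_I. The lowest, median and highest of the reference arrays were 8.13, 12.61 and 13.44. Of the Cdkn2a knockout tumours, myc_mix_I was the highest, above 6 of the 29 reference arrays and below their median. The means were 9.26 ± 1.24 in Cdkn2a knockout tumours and 12.22 ± 1.37 over the 11 reference means (SD), a difference of -2.96 ± 0.31 (adjusted p = 8.59e-09), or -3.32 without myc_mix_I. It was called lower than in 10 of the 11 backgrounds in the pairwise contrasts. The exception was beta-catenin tumours, which averaged 8.35 (difference 0.91, adjusted p = 0.317). Among the other reference arrays, Nup98HoxD13_III was lowest for Notch1 at 9.84. That array was also low for other Notch genes, with Dtx1 at 8.34, Notch3 at 9.26 and Hes1 at 8.31. Its Il2ra was 7.25, its Ptcra 7.98 and its Nrarp 8.24.

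Dtx1, which encodes a ubiquitin ligase induced by Notch, was also highest in myc_mix_I, whereas myb_I, with the next highest Notch1, had a Dtx1 of 8.66. It was 12.24 in myc_mix_I, 9.18 in pim1_ccnd3 and 8.53 to 8.74 in the other 7, with 8.34, 12.26 and 13.32 in the reference (-2.69 ± 0.37, adjusted p = 5.44e-07). The Cdkn2a knockout mean was 9.11 and that of beta-catenin tumours 8.93, a difference of 0.18 (adjusted p = 0.899). Hes1, a repressor that is a direct Notch target, averaged 8.35 in beta-catenin, 8.57 in Tal1 and 9.15 in Nup98HoxD13 tumours. Its means in the other backgrounds were 9.72 to 10.66. Among Cdkn2a knockout tumours Hes1 was 9.19 in myc_mix_I and 8.25 to 8.82 in the rest (-1.36 ± 0.14, adjusted p = 7e-09). Notch3, a receptor induced by Notch1 in thymocytes, differed in this respect. It was 8.86 in myc_mix_I, within the 8.82 to 9.89 of the others, and the reference ran from 9.26 to 12.10 (-1.69 ± 0.19, adjusted p = 3.11e-08, and -0.17 by its other probe set).

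Il2ra encodes CD25, the interleukin-2 receptor chain that marks thymocytes before beta selection. It was 8.68 in ras_I, 8.02 in myc_mix_I and 7.36 to 7.85 in the other 7, against 7.25, 9.62 and 12.28 (lowest, median, highest) in the reference arrays. The difference was -2.23 ± 0.38 (adjusted p = 1.78e-05). Ptcra, which encodes the pre-T-cell receptor alpha chain, was 10.45 in myc_mix_I and 7.85 to 8.51 in the other 8, against 7.73, 10.10 and 12.23 in the reference. The difference was -1.81 ± 0.37 (adjusted p = 0.00015), or -2.09 without myc_mix_I, and it was called against 4 of 11 backgrounds. Nrarp, a feedback inhibitor of Notch, was lower by -0.84 ± 0.21. Of the genes counted as higher, Gfi1 is described above, Hey1 differed by 0.42 ± 0.05 and Notch4 by 0.18 ± 0.03, the last of which was not called with arrays centred (0.04, adjusted p = 0.288).

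**Figure D4:**
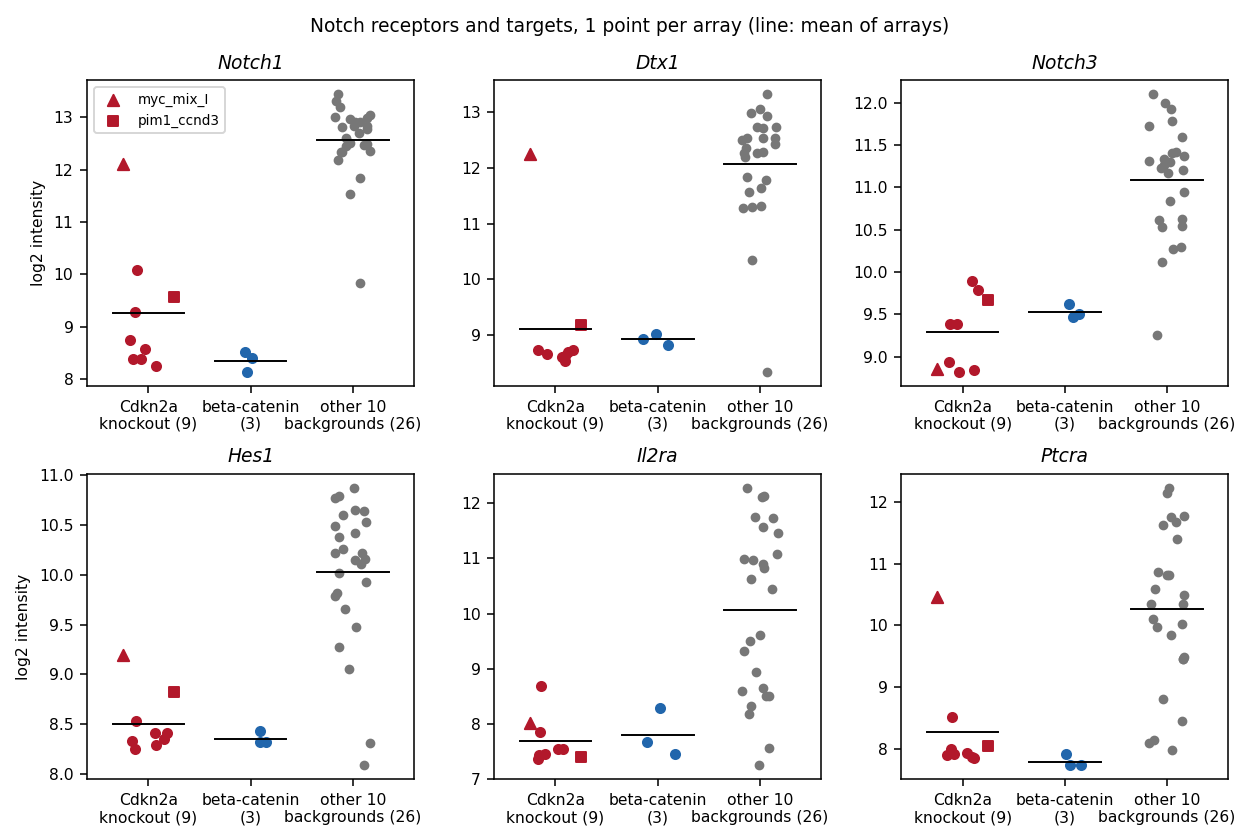
Log2 intensity of 6 Notch receptors and targets, 1 point per array, with the 9 Cdkn2a knockout arrays left, the 3 beta-catenin arrays in the middle and the 26 arrays of the other 10 backgrounds right; lines are means over arrays. Cdkn2a knockout and beta-catenin tumours sit low together, and the array Nup98HoxD13_III, among the points on the right, is low as well. The tumour myc_mix_I is high for Notch1, Dtx1 and Ptcra but not for Notch3.

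The promoter sequences of the lower Notch genes were searched for TGGGAA, the core bound by RBPJ, on both strands. RefSeq sequences (GRCm38.p6, 250 bases before to 50 after the start) were at hand for 6 of the 7, and 1 of these, Ptcra, held the motif, which occurs in 25.6% of the 32851 promoters in that table. The Ptcra promoter (chr17:46763663-46763962, minus strand) holds 2 matches, in capitals, and is shown with that of Notch1 (chr2:26503773-26504072, minus strand), the gene of largest difference, which has none. A match is a description of these letters and not a measured site.
Ptcra: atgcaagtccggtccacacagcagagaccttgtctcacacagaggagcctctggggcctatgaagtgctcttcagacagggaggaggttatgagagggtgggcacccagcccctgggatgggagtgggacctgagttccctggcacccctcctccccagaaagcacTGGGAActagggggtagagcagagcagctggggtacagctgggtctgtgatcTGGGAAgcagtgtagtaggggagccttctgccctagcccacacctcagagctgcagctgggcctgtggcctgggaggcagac
Notch1: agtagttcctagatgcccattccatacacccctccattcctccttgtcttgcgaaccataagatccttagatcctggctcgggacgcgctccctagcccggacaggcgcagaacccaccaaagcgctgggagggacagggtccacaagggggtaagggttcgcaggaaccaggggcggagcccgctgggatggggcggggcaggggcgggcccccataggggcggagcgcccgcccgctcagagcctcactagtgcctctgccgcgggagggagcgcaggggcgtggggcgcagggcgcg

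Against beta-catenin tumours 1 of the 13 Notch genes was called (beside 7.55% of all genes), and the median difference was 0.05. Across the other 10 backgrounds the median ran from -1.95 against rag E2A knockout to -0.06 against Tal1 transgenic tumours, where 3 were lower and 3 higher. It was -0.12 against Ikaros plastic, -0.19 against olig1-LMO1 and -0.32 against ThPOK tumours, with 5, 5 and 4 members lower. None of the members named above was called against beta-catenin tumours. Lef1, a transcription factor that pairs with beta-catenin, was 9.41 to 10.26 in Cdkn2a knockout tumours, averaged 10.18 in beta-catenin tumours (difference -0.47, adjusted p = 0.461) and ran from 9.73 to 12.24 over the reference. Its overall difference was -1.49 ± 0.21 (adjusted p = 7.36e-07).

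The remaining genes with the lowest differences, taken by rule, included Aldh1b1, a mitochondrial aldehyde dehydrogenase gene. It was 7.22 to 7.40 in the 9 tumours and 7.48, 10.18 and 12.07 in the reference (-2.65 ± 0.34, adjusted p = 2.54e-07), and it was the 1 gene (0.00807% of all) with all 9 arrays below all 29. Beta-catenin tumours lay nearest at a mean of 7.52 (difference -0.21, adjusted p = 0.876). Mpzl2, an adhesion molecule of thymic cells, was 6.18 to 7.87 with 6.36, 8.74 and 12.19 in the reference (-2.38 ± 0.39; -2.20 and -0.68 by other probe sets). Smo, the signal transducer of the Hedgehog pathway, was 8.11 to 9.62 with 8.67, 10.78 and 12.11 in the reference (-1.88 ± 0.19, adjusted p = 4.05e-09). Both were near the beta-catenin level.

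Mndal and Ifi204 belong to the interferon-inducible p200 family, whose close copies share sequence, so their values are uncertain. Mndal was 6.85 to 7.89 in Cdkn2a knockout tumours and 6.94 to 12.68 in reference arrays (-2.26 ± 0.28), and its background means fell apart, with 6.98 in Tal1-LMO2 and 12.29 in LMO1 transgenic tumours. Ifi204 was 9.23 in myb_I and 6.52 to 7.24 in the other 8 (-2.08 ± 0.35). Gdpd3, a phosphodiesterase gene, was 7.97 to 8.07 in all 9, while the background means were either 7.73 to 8.74 or 10.80 to 11.76 (-1.84 ± 0.31). Against the backgrounds with like spike-in signal the differences were -3.44 for Mndal, -1.27 for Ifi204 and -1.19 for Gdpd3. Hsd17b11, a hydroxysteroid dehydrogenase gene, was lower by -1.88 ± 0.32, with -0.62 by its other probe set. Ly6d, a surface protein of lymphoid progenitors, was 13.29 in myc_mix_I, 10.55 in mycras_mix_III and 8.31 to 9.60 in the rest (-1.89 ± 0.45, adjusted p = 0.000793, or -2.38 without myc_mix_I).

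On the high side, 7 genes (0.0565% of all) had all 9 Cdkn2a knockout arrays above all 29 reference arrays: Ctse, Fbxo2, Fbxl8, Col9a1, Col11a2, Cit and Clcn6. Fbxl8, which encodes an F-box subunit of a ubiquitin ligase, was 10.26, 10.77, 10.08, 10.33, 10.15, 10.04, 10.20, 10.77 and 10.68 in myc_I, ras_I, mycras_mix_II, myc_pure_II, mycras_mix_III, myb_II, myc_mix_I, pim1_ccnd3 and myb_I. The reference ran from 8.60 through 8.85 to 9.59 (1.47 ± 0.07, adjusted p = 3.66e-15). Fbxo2, whose F-box protein recognises glycans on misfolded proteins, was 8.51 to 9.63 with 7.19, 7.48 and 7.97 in the reference (1.54 ± 0.10, adjusted p = 8.92e-13). Both were above each of the 11 backgrounds in the pairwise contrasts, beta-catenin included (1.58 and 1.63). The collagen gene Col9a1 differed by 1.09 ± 0.07 and Col11a2 by 0.89 ± 0.08, Cit, a kinase gene of cytokinesis, by 0.46 ± 0.05 (-0.18 by its other probe set), and Clcn6, a chloride transporter gene, by 0.41 ± 0.04.

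Across the 38 arrays, Ctse was most like Fbxo2 (Pearson r = 0.85), Fbxl8 (0.80) and Trpm8, a cation channel gene (0.74). These points share the contrast between Cdkn2a knockout and reference arrays. Over the 29 reference arrays alone, r was 0.53 for Fbxo2, 0.12 for Fbxl8 and -0.04 for Trpm8.

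Other high genes, taken by rule, varied among the 9 tumours. Smim27, a small membrane protein gene, was 10.48 to 12.17 with 8.75, 9.22 and 12.01 in the reference, where ThPOK tumours averaged 11.90 (1.85 ± 0.13, adjusted p = 7.17e-12; 0.10 by its other probe set). Sh3bgrl2, a thioredoxin-like protein gene, was 11.04 in myc_I, 10.83 in ras_I, 9.95 in mycras_mix_II, 11.14 in myc_pure_II, 9.30 in mycras_mix_III, 11.05 in myb_II, 7.57 in myc_mix_I, 7.85 in pim1_ccnd3 and 7.56 in myb_I. Beta-catenin tumours averaged 11.50 and the median reference array was 7.39 (1.74 ± 0.36, adjusted p = 0.000168). Gna14, a G-protein alpha subunit gene, was 9.82 to 11.05 in 5 of these tumours, 8.48 in mycras_mix_III and 7.96 to 8.23 in myc_mix_I, pim1_ccnd3 and myb_I (1.61 ± 0.26; beta-catenin mean 9.25). Gadd45g, a growth-arrest gene singled out after its values were seen, was 7.56 in myc_mix_I, 7.82 in pim1_ccnd3 and 8.46 in mycras_mix_III, and 10.62 to 11.74 in the other 6. Beta-catenin tumours averaged 11.41 for Gadd45g, and the other backgrounds averaged 7.87 to 9.03. The same 3 tumours, myc_mix_I, pim1_ccnd3 and myb_I, were thus lowest for Sh3bgrl2 and Gna14. For Gadd45g, myb_I was among the high tumours and mycras_mix_III among the low ones.

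Esrp2, an epithelial splicing regulator, was 8.41 to 11.37 (1.46 ± 0.22, beta-catenin mean 10.44; 0.38 by its other probe set), and Slc40a1, the iron exporter ferroportin, 9.39 to 11.01 (1.47 ± 0.24). Slc40a1 averaged 10.26 in Tal1 and 10.27 in ThPOK tumours and 7.24 to 9.24 in the other backgrounds. Fgf13, which encodes an intracellular fibroblast growth factor homologue, was 6.97 to 10.83 (1.45 ± 0.49, adjusted p = 0.0136; 0.06 by its other probe set). The Fgf13 difference was 0.76 (adjusted p = 0.224) when the reference was limited to the 6 backgrounds with like spike-in signal. Fgf13 averaged 10.99 in LMO1 and 9.69 in olig1-LMO1 tumours and 6.82 to 8.80 in the other backgrounds. H2-Q2, a class I histocompatibility gene, was 6.65 in pim1_ccnd3 and 11.07 to 12.51 in the other 8, with 6.90 to 11.85 in the reference (1.54 ± 0.51, adjusted p = 0.0117, and 2.14 without pim1_ccnd3). H2-D4 was 7.84 to 10.24 (1.5 ± 0.19). Class I genes have near-identical copies, so both values are uncertain. Erdr1, named for erythroid differentiation, was 10.97 in pim1_ccnd3 and 12.95 to 13.85 elsewhere (1.58 ± 0.26, adjusted p = 1.12e-05). Its background means were 8.78 to 9.48 in Pokemon, ThPOK and olig1-LMO1 tumours and 12.20 to 12.81 in the other 8.

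Genes of the T-cell receptor complex were lower as well. Of 11 measured genes of the CD3 complex and proximal signalling, 6 were lower (54.5%, beside 17.1% of all genes), with a median of -0.31. Lat, the adaptor that organises signalling beneath the receptor, was 11.01 to 12.17 in Cdkn2a knockout tumours and 11.33, 12.66 and 13.31 in the reference (-1.03 ± 0.13, adjusted p = 1.45e-07). Cd3e differed by -0.62 ± 0.09, Cd3d by -0.61 ± 0.17 and Cd3g by -0.59 ± 0.13, and the means of all 4 genes were below all 11 reference means. Of 14 measured T-lineage commitment factors 4 were lower and 4 higher (28.6% each), with a median of 0.07 beside 0.08 over all genes. The higher ones were the transcription factor genes Tox (0.58 ± 0.24, adjusted p = 0.0359, and 0.0527 without pim1_ccnd3), Runx1 (0.47 ± 0.10, with -0.97 to 0.23 by its other probe sets and -0.23 for the mean of all of them), Ikzf1 (0.45 ± 0.13) and Runx3 (0.27 ± 0.04). Ikzf1 was 0.13 (adjusted p = 0.471) against the backgrounds with like spike-in signal. Beside Lef1, the lower ones were Id2, an inhibitor of E proteins (-1.21 ± 0.27, with 0.07 by 1 of its other probe sets, and 10.98 in pim1_ccnd3 and 10.42 in myb_I against 8.53 to 9.16 in the other 7), Bcl11b, a guardian of T-cell identity (-0.98 ± 0.15), and Gata3 (-0.97 ± 0.19).

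In the list of the double-positive stage, when thymocytes carry both CD4 and CD8, 4 of 12 genes were lower and 1 higher (33.3% and 8.33%, beside 17.1% and 38.9% of all genes). With arrays centred 6 were lower and 0 higher, and against the backgrounds with like spike-in signal 3 were lower and 0 higher. Of the 4 lower genes, Ptcra was also counted in the Notch list. Dntt, which encodes the terminal transferase that adds bases at receptor junctions, was 10.45 in myc_I, 9.71 in ras_I, 9.73 in mycras_mix_II, 9.27 in myc_pure_II, 10.77 in mycras_mix_III, 9.16 in myb_II, 11.86 in myc_mix_I, 9.31 in pim1_ccnd3 and 12 in myb_I. The lowest, median and highest reference values were 10.54, 12.26 and 13.09 (-1.83 ± 0.26, adjusted p = 8.12e-07). Only mycras_mix_III, myc_mix_I and myb_I reached the reference range. Arpp21, a thymocyte phosphoprotein gene, was 7.28 to 12.09 (-1.30 ± 0.35; -0.23 and 0.20 by other probe sets). Against the backgrounds with like spike-in signal Arpp21 was -0.95 (adjusted p = 0.0708), and it was higher than in beta-catenin tumours by 2.06 (adjusted p = 0.0356). Cd1d1, the antigen-presenting molecule of natural killer T cells, was lower by -0.82 ± 0.12. The member counted as higher was the coreceptor gene Cd4 (0.53 ± 0.19, adjusted p = 0.0218, and 0.85 by its other probe set). It was 10.23 to 11.79 in the 9 tumours, with 11.17 in pim1_ccnd3, and averaged 12.15 in beta-catenin tumours. The CD8 coreceptor genes and Rag1 split by tumour. Cd8a was 8.73 in pim1_ccnd3 and 11.41 to 12.89 in the other 8, Cd8b1 was 9.19 and 11.95 to 12.88, and Rag1, of the recombinase, was 8.14 and 10.97 to 12.47. Without pim1_ccnd3, Cd8a was 0.81 higher (adjusted p = 0.00686; 0.42 and 0.28 with it) and Cd8b1 was 0.87 higher (adjusted p = 0.00336; 0.52 and 0.166 with it), so that 3 of 12 members were higher.

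The counts of the following lists stand beside 38.9% higher and 17.1% lower of all genes. Among 13 measured BCL2 family genes 6 were higher and 2 lower (46.2% and 15.4%), or 4 and 2 with arrays centred, and the higher ones included the death-promoting Bmf (0.48 ± 0.07), Bik (0.47 ± 0.07) and Hrk (0.47 ± 0.04). Of 12 Ras and MAP kinase feedback genes 5 were higher and 2 lower (41.7% and 16.7%), with the transcription factor Etv5 at 7.85 to 10.32 (0.64 ± 0.23, or 0.43 with adjusted p = 0.206 against the backgrounds with like spike-in signal). Etv5 averaged 10.67 in beta-catenin tumours and 7.75 to 8.72 in the other backgrounds. Of 10 genes induced by receptor signalling 4 were higher and 1 lower, led by the nuclear receptor Nr4a3 (0.64 ± 0.11), and of 14 early progenitor and cytokine receptor genes 6 were higher and 2 lower, led by Il2ra and by Il6ra (0.76 ± 0.10; -0.24 by its other probe set). Of 19 interferon-stimulated genes 7 were higher and 7 lower (36.8% each), and the lower ones included Bst2 (-0.72 ± 0.14) and Irgm1, which was 10.24 in pim1_ccnd3 and 8.28 to 9.19 elsewhere (-0.58 ± 0.15).

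Of 20 MYC targets and ribosome biogenesis genes 4 were higher (20%, beside 38.9% of all genes), led by the helicase Eif4a1 (0.39 ± 0.07), and 1 was higher and 1 lower with arrays centred. Of 22 DNA replication genes 3 were lower (13.6%, beside 17.1% of all genes), led by the ribonucleotide reductase subunit Rrm1 (-0.58 ± 0.09; 10.65 in pim1_ccnd3 and 11.12 to 11.55 elsewhere), and 1 was lower and 2 higher without pim1_ccnd3. Of 20 mitosis genes 2 were lower (10%), and without that array 5 were higher. Of 13 mature T-cell and homing genes 1 was higher, S1pr1 (0.49 ± 0.07), and without pim1_ccnd3 1 was higher and 2 were lower. Among 14 cytotoxic genes 6 were higher and 1 lower, or 3 and 3 with arrays centred. The lower one was Gzma, the granzyme A gene, which was 12.89 in mycras_mix_II, 10.93 in mycras_mix_III, 13.30 in myc_mix_I, 13.07 in pim1_ccnd3 and 13.21 in myb_I but 8.73 to 9.68 in the other 4 (-1.45 ± 0.50, adjusted p = 0.0149). Eomes, a transcription factor of cytotoxic cells, was 9.40 in mycras_mix_II and 8.22 to 8.56 elsewhere.

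**Figure D5:**
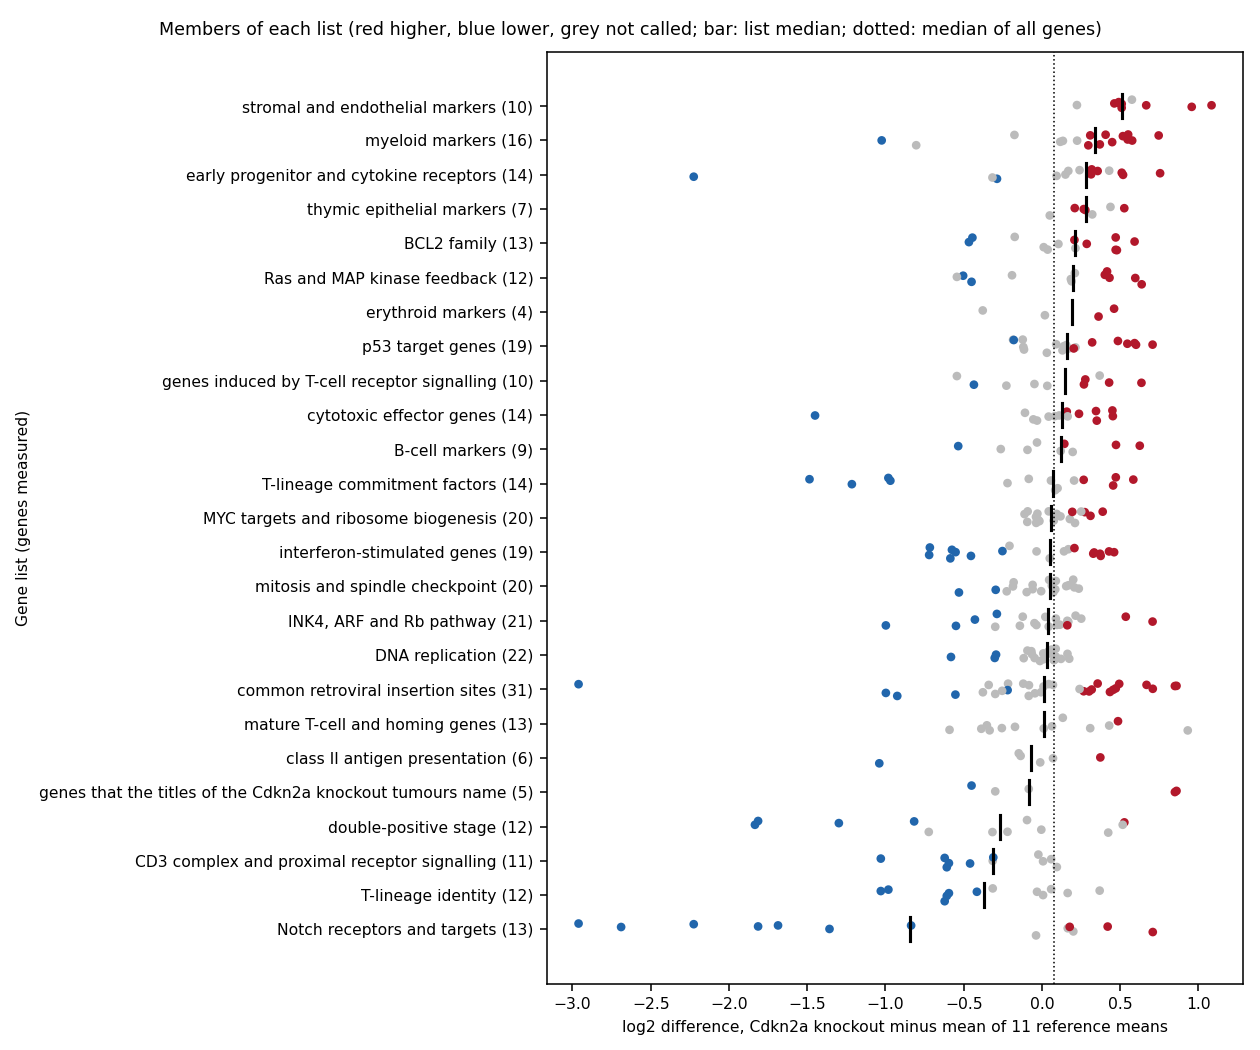
Log2 difference of each measured member of 25 gene lists, Cdkn2a knockout minus the mean of the 11 reference means (red higher, blue lower, grey not called; bars are list medians, the dotted line is the median of all genes, 0.08). The Notch list has the lowest median, -0.84, and stromal and endothelial markers the highest, 0.51.

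Markers of other cells were also measured. The counts stand beside 38.9% higher and 17.1% lower of all genes. Of 12 T-lineage identity genes 6 were lower (50%). Among these, Cd3e, Cd3d, Cd3g and Lat were already counted in the CD3 list and Bcl11b among the commitment factors. The summed level of the 12 genes was 15.07 to 15.65 in Cdkn2a knockout and 15.11 to 16.14 (log2 of summed intensity) in reference arrays. Of 10 stromal and endothelial markers 8 were higher (80%, beside 38.9% of all genes), or 5 with arrays centred and 2 against the backgrounds with like spike-in signal, with sums of 13.44 to 14.30 and 11.75 to 14.55. In single contrasts 8, 8 and 10 were higher than in E2A knockout, rag E2A knockout and Tal1-LMO2 tumours and 0 to 3 than in the other backgrounds. Sparc, a matrix protein gene, was 10.36 to 11.75 (1.08 ± 0.20, or 0.69 against the backgrounds with like spike-in signal), and Col3a1, a collagen gene, was 10.20 to 12.37 (0.96 ± 0.27), or 0.17 (adjusted p = 0.692) against the 6 backgrounds with like spike-in signal. Of 16 myeloid markers 10 were higher and 1 lower (62.5% and 6.25%), or 6 and 2 with arrays centred and 3 and 2 against the backgrounds with like spike-in signal, with sums of 14.39 to 14.96 and 12.98 to 15.54. In single contrasts 9, 10 and 13 were higher than in E2A knockout, rag E2A knockout and Tal1-LMO2 tumours and 0 to 5 than in the others, and Itgam was 11.36 in ras_I and 7.21 to 8.42 elsewhere. Of 7 thymic epithelial markers 4 were higher, with sums of 11.28 to 12.80 and 10.96 to 14.12. Of 9 B-cell markers 3 were higher and 1 lower, with sums of 11.72 to 12.68 and 11.45 to 12.95. The remaining lists had 1 higher and 1 lower of 6 class II genes, with sums of 11.77 to 14.11 and 11.55 to 15.28, and 2 higher of 4 erythroid genes, with sums of 10.78 to 11.37 and 10.38 to 11.92. The ranges of the 2 groups overlapped for every list, and the part of these cells in the differences was not tested.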

How the data were processed

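The authors deposited 1 normalized intensity per probe set and array on a linear scale, judged from the values. How they were normalized is not stated in the labels, and biotin-labelled cRNA is named per the labels' protocols. Values were taken to log2. Of 22690 probe sets, 20380 carried 1 gene symbol, 691 several, 1555 none used here and 64 were controls; 20351 were matched by Entrez identifier to update symbols. For 4956 of 12393 genes with several probe sets, that of highest mean was used.

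Differences were fitted with limma 3.58.1 (lmFit, eBayes) in R 4.3.3, with 1 coefficient per background, two-sided, Benjamini-Hochberg over all genes, threshold 0.05. Title genes were compared by exact permutation tests. Tables and tests used SciPy 1.17.1, pandas 2.3.3 and NumPy 2.4.6 under Python 3.11.15, and plots Matplotlib 3.10.9. Tested on simulated data over the same genes, the fit recovered 100% of log2 changes of 1 and 85% of 0.5, and called 0.107% of unchanged genes. For unchanged genes the simulated Cdkn2a knockout mean equalled the mean of the reference means, and only spread within backgrounds was added. The simulation therefore gives no rate of false calls where backgrounds differ among themselves.

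The comparison, its members and the gene lists were chosen with earlier results of these data known. Genes were named by a rule: the 12 highest and 12 lowest called differences with a mean above the mean array median and at least 8 of 9 tumours on 1 side of the median reference mean, without unnamed transcripts, several-gene probe sets, receptor segments and Y-linked genes; then Ctse, title genes, up to 4 called members per list, and genes said to be chosen after their values were seen. Other members named from the Notch, insertion-site, p53 and coreceptor lists were also chosen then. Alternatives were a filter on dim genes, mean of probe sets, quantile normalization, centring, trended and robust eBayes, other references and weights, random and replicate blocks, and leaving out each array or background. A reference of backgrounds with like spike-in signal was chosen after seeing the data. Title numbers did not pair tumours (correlation of deviations -0.0102 on average, -0.3 to 0.266). No 2 arrays were identical (highest correlation 0.988).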

Additional observations from a re-analysis of the deposited data

Results flagged for a closer look

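In these cases 1 of the 9 Cdkn2a knockout tumours lay farther from its nearest neighbour than the Dixon limit for 9 samples allows. Chance flags about 1 in 20 groups. Here 19.1% of 12393 genes passed the limit, and in 15.3% the outlying array was pim1_ccnd3. On pim1_ccnd3 the salivary secretory genes stood out at 13.17 for Amy1, 14.16 for Mucl1, 14.27 for Scgb1b27, 13.85 for Scgb2b27, 14.19 for Car6, 13.71 for Bpifa2 and 12.85 for Smr3a. The same array was high for Pim1 at 12.21, Ccnd2 at 11.26, Irgm1 at 10.24 and Mycn at 9.62. It was low for Erdr1 at 10.97, H2-Q2 at 6.65, Sox4 at 10.33, Rrm1 at 10.65, Rag1 at 8.14, Cd8a at 8.73 and Cd8b1 at 9.19.

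The tumour myc_mix_I stood out high for Notch1 at 12.11, Dtx1 at 12.24, Ptcra at 10.45 and Ly6d at 13.29, and low for Gfi1 at 9.97. Single genes stood out in other tumours: Il2ra at 8.68 and the myeloid integrin gene Itgam at 11.36 in ras_I, Ifi204 at 9.23 in myb_I, Eomes at 9.40 in mycras_mix_II, and Trpm8 at 7.63, low, in myc_I.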

How the results depend on the processing

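Of the counts over all genes, 4825 higher and 2117 lower, a filter on dim genes gave 2757 higher, centring 2891 higher and 4048 lower, and background as a random block 2 higher and 0 lower. Of the 55 genes higher and 81 lower by 2-fold, the mean of probe sets gave 35 higher, centring 33 higher, and the random block 2 and 0. The Ctse difference in the random block was 2.30 (adjusted p = 0.532). The filter, which tests 8515 genes, lowered the count called against LMO1 to 3896, Nup98HoxD13 to 2759, olig1-LMO1 to 3612, Pokemon to 2628, rag E2A to 3189, Tal1 to 2627 and Tal1-LMO2 to 3618. The cause of the other changes was not tested. Leaving out each of 38 arrays gave 4632 to 5103 higher, 1940 to 2277 lower, 52 to 72 and 75 to 91 by 2-fold, and a Ctse difference of 2.20 to 2.41. Where that leaves a background with 1 array, the lone sample is assumed to vary like the other groups. The replicate block, with numbers that do not pair the tumours, gave 4483 higher and 1928 lower and a Ctse difference of 2.36. Against the reference of like spike-in signal, C1qb turned to -0.01 and C1qc to -0.0013. With the mean of probe sets Runx1 turned to -0.23, and Cdkn2b turned to -0.12 with arrays centred and -0.13 after quantile normalization. Results of dim genes are limited by signal over background, and most differences lie under 2-fold (median size 0.31 among called genes).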
